A study of Mus musculus with 17 samples.

Results

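The nuclei carrying the deposited label Glia were 225 of 284074 nuclei from posterior mouse brain, 0.0792% of the total. They were taken by that label alone, whatever their cluster, and all 17 animals gave at least 1. The label was assigned by prediction, from a reference that the sources used here do not name. All 8 genes of the choroid plexus list, all 14 of the motile cilium list and 5 of the 6 on the tanycyte list were higher in these nuclei than under any other label. None of the 10 oligodendrocyte, 10 astrocyte or 8 microglial genes was. The nuclei are called Glia-labelled throughout.

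The 17 mice, all female and aged 2.3 months, carried the human transferrin receptor gene (TfR) as a homozygous knock-in. They were dosed intravenously 4 times over 24 days, and brains were collected 72 hours later. The groups were saline (4 animals), a free antisense oligonucleotide against Malat1 at 2 mg per kg (Malat1 ASO, 4 animals), the oligonucleotide joined to an antibody against TfR at 50 mg per kg (anti-TfR:Malat1, 6 animals) and the oligonucleotide on the oligonucleotide transport vehicle at 50 mg per kg (OTV:Malat1, 3 animals). The knock-in is shared by all groups, saline included. Malat1 is an abundant nuclear long noncoding RNA, so it can be read in single nuclei.

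The ventricles of the brain are lined by ependymal cells, which carry motile cilia that move cerebrospinal fluid. At the choroid plexus the lining becomes a secretory epithelium that makes this fluid and secretes transthyretin, the product of Ttr. On the floor of the third ventricle it holds tanycytes, elongated cells that touch both the fluid and the hypothalamus. Choroid plexus vessels are leaky, unlike those of most of the brain.

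The leading genes were ranked by the ratio of their level in Glia-labelled nuclei to that in all other nuclei, both in UMIs (unique molecular identifiers, each standing for 1 captured RNA molecule) as counts per 1000000 UMIs (CPM) with 10 added. Ttr led, with 2690 CPM against 24.0 in the other nuclei. Spag16, a gene of the central apparatus of motile cilia, was second, with 1059 CPM against 6.71, and had a UMI in 68.4% of Glia-labelled nuclei against 1.34% of the others. Gmnc, a regulator of multiciliated cell formation, followed with 495 against 1.72. Of the 17 animals, 16 had a UMI for Spag16 in their Glia-labelled nuclei, 15 for Ttr and 14 for Gmnc. Labels were predicted from expression, so no test was made of these contrasts.

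Of the 25 leading genes, 3 were on the motile cilium list: Spef2 and the axonemal dynein heavy chains Dnah11 and Dnah6. Ttr and Htr2c, a serotonin receptor, were on the choroid plexus list, and Nnat and Col23a1 on the tanycyte list. The rest were on none of these lists: Spag16, Gmnc, Ccdc114 (an outer dynein arm docking gene), Tmem72, Rbm47, Otx2os1, Prdm16, Col9a3, Ccdc170, Acss3, C230072F16Rik, Sfta3-ps, Ak9, Tshr (the thyrotropin receptor), Nxn, Lrriq1, Adgrv1 and Ttc21a. Set against whichever other label was highest for each gene, the 10 leading genes were Gmnc, Tmem72, Otx2os1, Spag16, Dnah11, Ttr, Ak9, Htr2c, Lrriq1 and Ttc21a. Tmem72 stood at 418 CPM against at most 0.22 under any other label. Prdm16 at 533 CPM was less specific, since astrocyte-labelled nuclei held 300, and Rbm47 at 605 was no higher than in nuclei labelled perivascular macrophages, at 613.

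Each of the 14 motile cilium genes was higher in Glia-labelled nuclei than under every other label, and together they made 3256 CPM against 30.1 to 126 elsewhere. Spef2 and Cfap54 were each at 468 CPM with a UMI in 55.6% of the nuclei, and Cfap44 was at 393 with 50.7%. UMIs for 3 or more of the 14 genes were found in 158 of the 225 nuclei (70.2%), against 1.87% of neuron-labelled nuclei (median 4614 UMIs per nucleus) and 0.32% of astrocyte-labelled nuclei (median 1800, beside 1815 for Glia). Foxj1, the master regulator of motile cilia, was sparse, with 14 UMIs in 5.78% of the nuclei, and Tmem212 and Ccdc153, defining genes of mature ependymal cells, had 15 and 2 UMIs in all. Of the 10 genes of the ependymal list, 5 or more had a UMI in 9 nuclei.

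Promoter sequence was read for the leading and cilium genes because RFX factors, which drive many cilium genes, bind the X-box, whose half-site is GTTGCC. The 150 bases before each gene's start were searched for that run on both strands (GGCAAC on the other), in the RefSeq promoter table on GRCm38.p6, which is the mm10 genome. It occurred for 4 of the 19 leading genes found in the table (21.1%), for 1 of the 10 motile cilium genes found (10.0%), for 1 of 4 choroid plexus genes, for 0 of 4 tanycyte genes and for 2056 of all 27025 genes (7.61%). The table did not match 6 of the 25 leading genes and 4 of the 14 motile cilium genes. The promoters of Spag16 (chr1:69826820-69826969, plus strand), Cfap44 (chr16:44394649-44394798, plus strand), Ccdc170 (chr10:4482365-4482514, plus strand) and Lrriq1 (chr10:103236323-103236472, minus strand) are shown 5′ to 3′, with the half-site in capitals.
Spag16: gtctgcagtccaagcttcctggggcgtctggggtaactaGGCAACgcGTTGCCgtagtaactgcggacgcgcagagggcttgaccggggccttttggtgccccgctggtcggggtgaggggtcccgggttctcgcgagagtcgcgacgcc
Cfap44: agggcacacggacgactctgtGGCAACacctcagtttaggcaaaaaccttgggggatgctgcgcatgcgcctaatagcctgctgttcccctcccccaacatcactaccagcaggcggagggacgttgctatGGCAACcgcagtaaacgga
Ccdc170: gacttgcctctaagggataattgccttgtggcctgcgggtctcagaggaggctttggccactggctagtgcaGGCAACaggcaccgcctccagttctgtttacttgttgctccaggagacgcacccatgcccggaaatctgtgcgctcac
Lrriq1: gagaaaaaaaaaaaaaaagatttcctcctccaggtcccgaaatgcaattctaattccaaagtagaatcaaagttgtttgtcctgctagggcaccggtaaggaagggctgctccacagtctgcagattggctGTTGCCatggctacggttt
In Spag16 the half-site was found on both strands, separated by the bases gc, and Cfap44 held 2 on the same strand. The fifth match among both sets was in Rbm47. Dnah11 and Dnah6, which are also axonemal, held no such run in this window. A match is a run of letters and was not shown to be bound.

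The choroid plexus list summed to 12085 CPM in Glia-labelled nuclei, against 209 to 1729 under the other labels, and all 8 of its genes were highest here. Htr2c was at 5175 CPM, Enpp2 (autotaxin, also made by oligodendrocytes) at 3152 and Prlr (the prolactin receptor) at 476. Kl (klotho) was at 191, Clic6 at 218, Otx2 at 125 and Folr1 (a folate receptor) at 56.2. Yet these genes were confined to few nuclei: Htr2c had a UMI in 24.0% of them, and 50 of 225 nuclei held UMIs for at least 5 of the 8. Outside the Glia label, 11 neuron-labelled nuclei of 193268 held as many and none under the other labels did. Ttr had a UMI in 32.4% of Glia-labelled nuclei and in 8.56% of all others, which are deeper in the median, so single Ttr UMIs carry little information.

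The tanycyte list summed to 5041 CPM against 54.6 to 713 under other labels, mostly from Nnat (3385) and Col23a1 (1456). Rax, a homeobox gene confined in brain largely to tanycytes, had 22 UMIs in 8.44% of the nuclei, or 45.8 CPM, and was at most 0.41 elsewhere. Crym was at 83.2 CPM and Scn7a at 49.9. Lhx2 at 20.8 was the only one of the 6 not highest in Glia-labelled nuclei, astrocyte-labelled ones holding 32. UMIs for 3 or more of the 6 genes were found in 21.3% of Glia-labelled nuclei, against 1.35% of neuron-labelled ones. For 5 or more they were found in 1 of the 225 nuclei, in 15 of 193268 neuron-labelled and in 1 of 4972 astrocyte-labelled nuclei. Among the 2918 nuclei with other labels in the authors' cluster 26 at resolution 1, 53 held 3 or more (1.82%) and 2 held 5 or more.

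The oligodendrocyte list summed to 1325 CPM against 15897 in oligodendrocyte-labelled nuclei, within the 508 to 1890 of the remaining labels. The astrocyte list summed to 2649 against 21888 in astrocyte-labelled nuclei, led by Slc1a2 at 780 and Slc1a3 at 716. Several astrocyte genes were nonetheless above their level in the sum of all other nuclei. Slc1a3, a glutamate transporter, was at 716 CPM against 51.4 in the other nuclei and 1828 in astrocyte-labelled ones. Gja1, a gap junction gene, was at 91.5 against 4.31. Aqp4, the astrocytic water channel, was at 25.0 against 2.63 in all other nuclei and 160 in astrocyte-labelled ones. The microglial list was at 200 CPM, the perivascular macrophage list at 2.08 from 1 detected gene, and none of the T cell genes had a UMI. The neuron list was at 3129 CPM against 25120 in neuron-labelled nuclei, which is close to the 3091 of vascular-labelled nuclei.

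**Figure D1:**
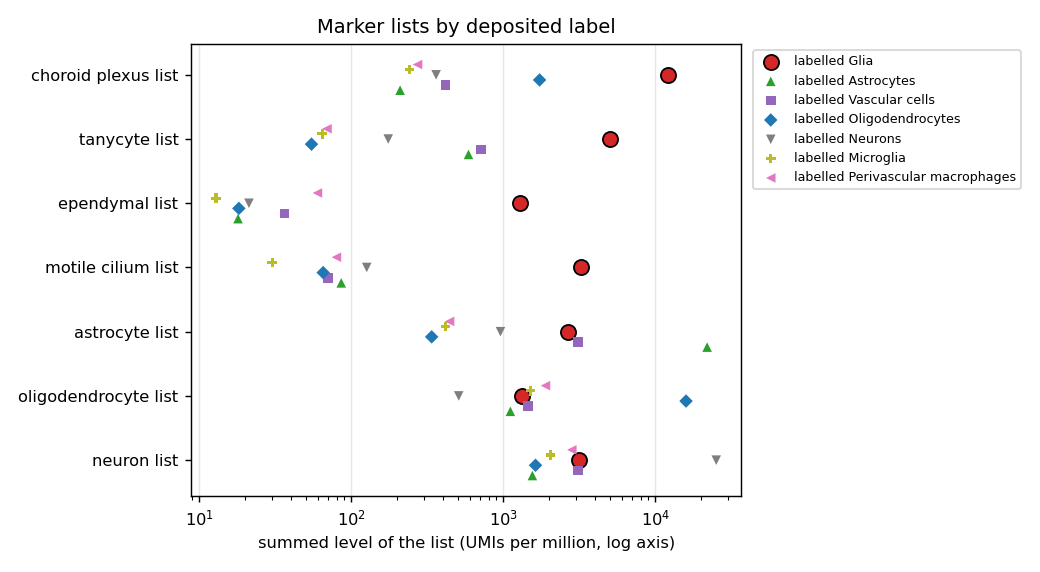
Summed level of each gene list (horizontal, CPM, log axis) in nuclei of each deposited label, with 1 symbol per label and the Glia label as large circles. Glia-labelled nuclei were highest for the choroid plexus (12085), tanycyte (5041), ependymal (1286) and motile cilium (3256) lists, and far below oligodendrocyte-labelled nuclei (15897) for the oligodendrocyte list (1325), where the remaining labels lay at 508 to 1890.

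In the authors' clustering at resolution 0.4, 223 of the 225 nuclei lay in cluster 14. This cluster held 7405 nuclei, of which 4793 were labelled astrocytes, 1203 vascular cells and 1147 neurons, so the Glia label made up 3.01% of it. The other 2 nuclei were in the neuronal clusters 4 and 10. At resolution 1, 196 were in cluster 26, 27 in cluster 21 (98.4% astrocyte-labelled), 1 in cluster 18 and 1 in cluster 23. Cluster 26 itself was mixed, with 1194 vascular, 1120 neuronal, 565 astrocyte and 36 oligodendrocyte labels beside the 196. No deposited cluster was made up mainly of these nuclei. The 10 genes leading the 223 nuclei of cluster 14 were Ttr, Spag16, Gmnc, Tmem72, Rbm47, Ccdc114, Otx2os1, Col23a1, Prdm16 and Ccdc170. The 27 nuclei in the astrocytic cluster 21 were led instead by Ccdc170, Ccdc114, Sfta3-ps, Thbs4 and Gm973.

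The deposited prediction score, which runs from 0 to 1, ranged from 0.36 to 0.999 with a median of 0.70, and 32 nuclei scored under 0.5. Its quartiles were 0.57 and 0.96, against 0.97 and 1 in astrocyte-labelled nuclei. The authors called 27 of the 225 doublets (12%, exact binomial 95% interval 8.06 to 17%), compared with 16.8% of all nuclei and 10.0% of astrocyte-labelled ones. The doublets had a median of 2776 UMIs and the 198 singlets 1690. The nucleus in cluster 4 held 11850 UMIs, was called a doublet and came from Malat1 ASO replicate 3, where it made up 50.9% of the Glia-labelled UMIs.

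Clustering the 225 nuclei alone, with Malat1 and Xist left out, gave 6 sub-clusters, which were made after the levels had been seen and so carry no test. Sub-cluster 2 (51 nuclei, 22.7%) was choroid plexus-like: Ttr (7244 CPM) and Htr2c (14513) had a UMI in every nucleus, Enpp2 (8666) in 98% and Prlr (1289) in 86.3%. Its nuclei were the deepest named ones, with a median of 3046 UMIs, and the most surely labelled, with scores from 0.92 to 0.999. They also held Dnah6 at 508 and Spag16 at 1525 CPM. This set of 51 nuclei was the same at resolutions 0.2 and 1.

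Sub-clusters 3 (50 nuclei) and 4 (36 nuclei) were called tanycyte-like, mainly for Nnat and Col23a1. Nnat was at 7709 and 7105 CPM with a UMI in every nucleus, and Col23a1 at 3359 and 3682. Rax was at 182 CPM in sub-cluster 3 (26% of nuclei) and 57.5 in sub-cluster 4 (11.1%). Scn7a had 24 UMIs in 19.4% of the nuclei of sub-cluster 4 (345 CPM) and no UMI in sub-cluster 3, and Col25a1 was among the leading genes of sub-cluster 4 at 7465 CPM. Spag16 and Ccdc114 were among the leading genes of both, and Dnah11 among those of sub-cluster 3. The motile cilium list was also highest in sub-cluster 3, with Cfap54 at 742 CPM and Dnah12 at 391, so the name does not set these nuclei apart from ciliated ones. The choroid plexus list was at 117 and 201 CPM, and prediction scores were lower, with medians of 0.67 and 0.69 and none at 0.95 or above. At resolution 0.2 both joined sub-cluster 1.

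The other 3 sub-clusters were left unnamed. Sub-cluster 1 (54 nuclei) mixed markers: the tanycyte list stood at 5575 CPM, the astrocyte list at 4393, and Tmem212 (112) and Foxj1 (61.1) were at their highest for any sub-cluster. Of the 9 nuclei with 5 or more ependymal genes, 6 were here. Neuronal genes were present too, with Meg3 at 2048 CPM, Snhg11 at 1213 and Nrg3 at 887. So were the choroid plexus genes Htr2c (897 CPM, from 3.7% of the nuclei) and Ttr (805). Sub-cluster 1 also held the doublet of 11850 UMIs from the neuronal cluster 4, whose part in these levels was not tested. Sub-cluster 5 (17 nuclei) was led by Thbs4, a thrombospondin, at 767 CPM, and held the highest astrocyte list (7226, with Slc1a2 at 3189) and 161 for the tanycyte list. Of its nuclei, 12 were in the astrocytic cluster 21, as were 13 of sub-cluster 1 and 2 of sub-cluster 3. Sub-cluster 6 (17 nuclei) joined cilium genes (2989 CPM) and tanycyte genes (4051) with oligodendrocyte genes (7560, Mbp at 2253 in every nucleus), and 16 of the 17 were called doublets by the authors.

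**Figure D2:**
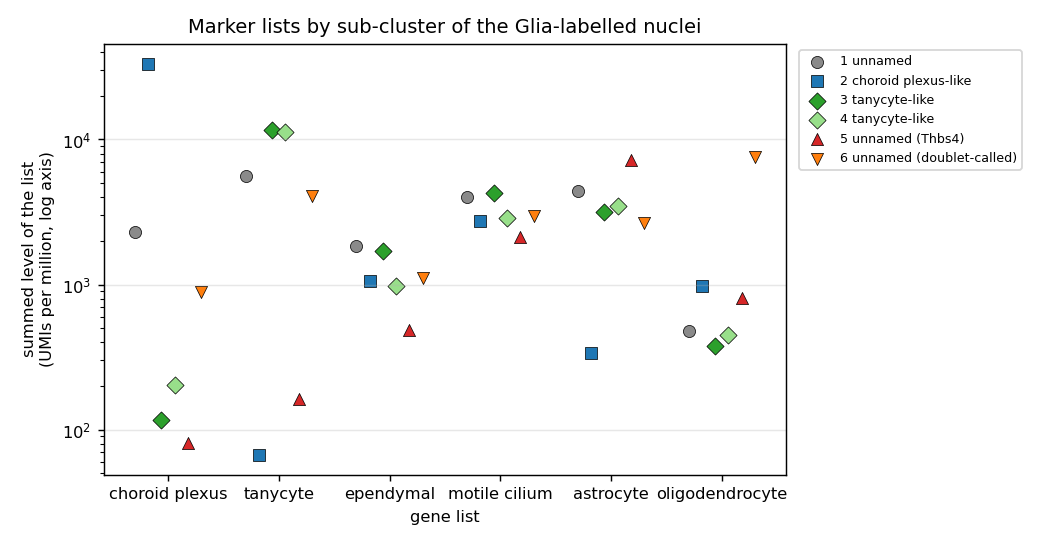
Summed level of 6 gene lists (vertical, CPM, log axis) in each of the 6 sub-clusters of Glia-labelled nuclei. Sub-cluster 2 stands highest for the choroid plexus list (33376), sub-clusters 3 and 4 for the tanycyte list (11537 and 11334). The motile cilium list lies between 2140 and 4284 in all 6 and is highest in sub-cluster 3.

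**Figure D3:**
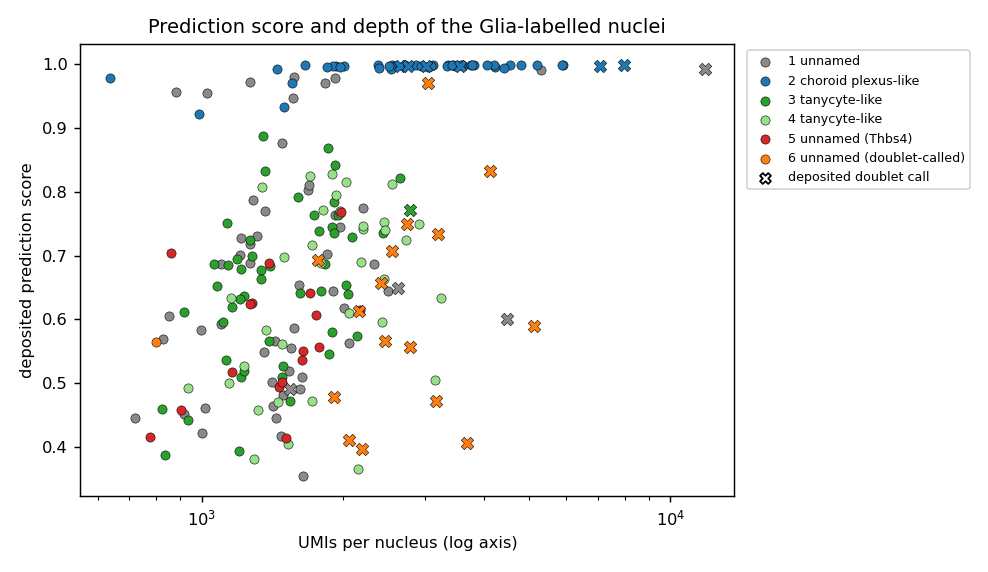
Deposited prediction score (vertical) against UMIs per nucleus (horizontal, log axis) for the 225 nuclei, coloured by sub-cluster, with crosses for nuclei the authors called doublets. The choroid plexus-like nuclei all score 0.92 or more, and 3 in 4 nuclei of sub-cluster 6, where most crosses lie, score 0.71 or less.

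Numbers of Glia-labelled nuclei differed widely between animals of 1 group. Saline replicates 1 to 4 gave 25, 5, 20 and 7 nuclei, or 0.17, 0.029, 0.11 and 0.045% of all their nuclei. Malat1 ASO replicates gave 17, 22, 6 and 13 nuclei, or 0.11, 0.13, 0.034 and 0.081%. The 6 anti-TfR:Malat1 animals ranged from 0.0056 to 0.32% with a median of 0.027%, the highest being replicate 6 with 53 nuclei. OTV:Malat1 replicates gave 9, 24 and 1 nuclei, or 0.052, 0.13 and 0.0060%. The groups overlapped throughout. The mean share was 0.088% ± 0.063 (SD, n = 4) in saline, 0.090% ± 0.043 (n = 4) in Malat1 ASO, 0.076% ± 0.12 (n = 6) in anti-TfR:Malat1 and 0.063% ± 0.063 (n = 3) in OTV:Malat1. Exact two-sided permutation tests over animals gave an adjusted p of 0.94 for each of the 4 comparisons. Without anti-TfR:Malat1 replicate 6 the sign of OTV:Malat1 minus anti-TfR:Malat1 turned, from -0.013 to 0.035 percentage points.

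The mix of sub-clusters also differed. Choroid plexus-like nuclei were 8 of 57 in saline, 6 of 58 in Malat1 ASO, 26 of 76 in anti-TfR:Malat1 and 11 of 34 in OTV:Malat1, the last all from replicate 2. Tanycyte-like nuclei were 28 of 57, 22 of 58, 29 of 76 and 7 of 34. All 5 nuclei of anti-TfR:Malat1 replicate 1 were choroid plexus-like, and 25 of the 29 tanycyte-like nuclei of that group came from replicate 6. How much ventricular lining each piece of tissue held is not recorded in the labels and was not tested.

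**Figure D4:**
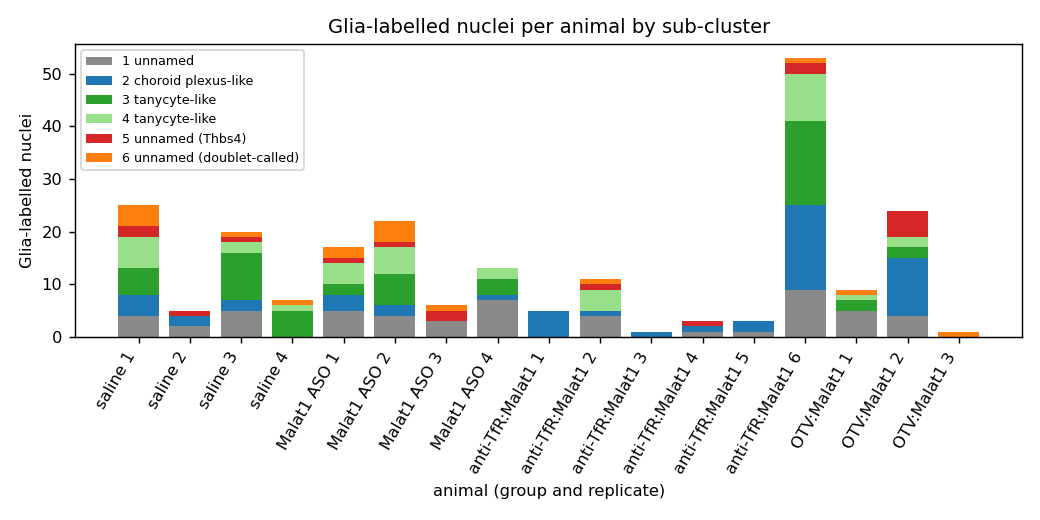
Glia-labelled nuclei (vertical, number) of each of the 17 animals, stacked by sub-cluster. Anti-TfR:Malat1 replicate 6 holds 53 nuclei, and 4 animals hold fewer than 5.

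Malat1, the target of the oligonucleotide, was measured in the 13 animals with at least 5 Glia-labelled nuclei, as a percent of their summed UMIs. Saline replicates 1 to 4 stood at 10.0, 6.86, 7.85 and 6.10%. Malat1 ASO replicates stood at 6.78, 6.56, 8.66 and 5.40%. Anti-TfR:Malat1 replicates 1, 2 and 6 stood at 3.14, 5.91 and 4.25%, and OTV:Malat1 replicates 1 and 2 at 4.59 and 4.24%. These 5 animals given a conjugate were below the lowest saline animal, although the counting intervals of anti-TfR:Malat1 replicate 2 (5.63 to 6.20%) and saline replicate 4 (5.64 to 6.59%) overlap, while the free oligonucleotide overlapped saline. The group means were 7.71% ± 1.70 (SD, n = 4), 6.85% ± 1.35 (n = 4), 4.43% ± 1.39 (n = 3) and 4.42% ± 0.24 (n = 2). They correspond to 88.9, 57.5 and 57.3% of the saline mean for Malat1 ASO, anti-TfR:Malat1 and OTV:Malat1.

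These differences did not pass the tests. On the log2 scale of CPM plus 1, anti-TfR:Malat1 minus saline was -0.82 (exact two-sided permutation p = 0.057, the smallest that 3 against 4 animals can give, adjusted p = 0.23 over the 4 comparisons). OTV:Malat1 minus saline was -0.78 (exact permutation p = 0.13, again the smallest possible, adjusted p = 0.27). Malat1 ASO minus saline was -0.17 (exact permutation p = 0.43, adjusted 0.57) and OTV:Malat1 minus anti-TfR:Malat1 was 0.04 (exact permutation p = 1). The 4 animals with 1 to 3 nuclei, left out here, stood at 2.27, 6.33 and 4.39% (anti-TfR:Malat1 replicates 3, 4 and 5) and 2.91% (OTV:Malat1 replicate 3). In such sums the mix of nuclei and the level within nuclei cannot be told apart. In the pooled nuclei of saline animals alone, Malat1 was 6.15% in choroid plexus-like nuclei, 8.99% in tanycyte-like nuclei, 9.73% in sub-cluster 1, 9.88% in sub-cluster 5 and 9.83% in sub-cluster 6.

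Malat1 was therefore read within sub-clusters as well, as values without a test. In choroid plexus-like nuclei it was 6.86, 5.13 and 5.76% in saline replicates 1 to 3 (4, 2 and 2 nuclei). It was 5.79, 2.99 and 5.39% in Malat1 ASO replicates 1, 2 and 4 (3, 2 and 1 nuclei). In anti-TfR:Malat1 replicates 1 to 6 it was 3.14, 5.06, 2.27, 4.94, 3.46 and 3.83% (5, 1, 1, 1, 2 and 16 nuclei). The single nuclei of replicates 2 and 4 had exact binomial 95% intervals, for counting error alone, of 4.14 to 6.11% and 4.01 to 6.01%, which overlap the 4.62 to 5.68% of saline replicate 2. In OTV:Malat1 replicate 2 it was 3.29% (11 nuclei), with an interval of 3.11 to 3.49%.

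In tanycyte-like nuclei Malat1 was 10.8, 8.17 and 5.65% in saline replicates 1, 3 and 4 (11, 11 and 6 nuclei). It was 6.25, 5.75 and 4.23% in Malat1 ASO replicates 1, 2 and 4 (6, 11 and 5 nuclei). Anti-TfR:Malat1 replicates 2 and 6 held 6.92 and 4.44% (4 and 25 nuclei), and OTV:Malat1 replicates 1 and 2 held 6.04 and 6.18% (3 and 4 nuclei). All 3 treated groups overlapped saline here, and OTV:Malat1 lay within the saline range, above saline replicate 4 alone. That overlap is between deposited batches: saline replicate 4 is of batch 4, and OTV:Malat1 replicates 1 and 2 are of batches 2 and 3. Saline replicate 3, of the same batch as OTV:Malat1 replicate 2, stood at 8.17% against 6.18%. No saline animal of batch 2 held such nuclei. In batches 1 and 4 each treated animal here was below the saline animal.

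In the unnamed sub-cluster 1 Malat1 was 12.6, 10.4 and 7.95% in saline replicates 1 to 3 (4, 2 and 5 nuclei) and between 6.27 and 8.4% in the 4 Malat1 ASO animals. Anti-TfR:Malat1 replicates 2, 4, 5 and 6 held 4.81, 3.29, 8.19 and 3.98% (4, 1, 1 and 9 nuclei), and OTV:Malat1 replicates 1 and 2 held 3.85 and 5.19% (5 and 4 nuclei). Malat1 ASO replicates 1 to 4 had 5, 4, 3 and 7 nuclei in sub-cluster 1. Those of replicate 3 included the nucleus of 11850 UMIs from the neuronal cluster 4, which was called a doublet. Its part in the value of that animal was not tested. Both OTV:Malat1 animals were below every saline animal here, but the saline animals differ from those of the tanycyte-like nuclei. Saline replicate 4, the lowest there at 5.65%, had no nucleus in sub-cluster 1. Saline replicates 1 and 3, present in both sets, were above both OTV:Malat1 animals in tanycyte-like nuclei too (10.8 and 8.17% against 6.04 and 6.18%). In sub-cluster 6 the values were 10.0, 11.7 and 7.28% in saline replicates 1, 3 and 4 (4, 1 and 1 nuclei), and 3.26 and 2.91% in OTV:Malat1 replicates 1 and 3 (1 nucleus each). Malat1 ASO replicates 1 to 3 held 7.67, 9.09 and 12.5% there (2, 4 and 1 nuclei), and anti-TfR:Malat1 replicates 2 and 6 held 8.22 and 7.22% (1 nucleus each). Of the 17 nuclei of sub-cluster 6, 16 were called doublets, and it held oligodendrocyte genes. These values therefore cannot be assigned to 1 kind of nucleus. In sub-cluster 5 the values were 13.9, 8.72 and 4.58% in saline replicates 1 to 3 (2, 1 and 1 nuclei) and 6.74% in OTV:Malat1 replicate 2 (5 nuclei), which lay within the saline range. Malat1 ASO replicates 1 to 3 held 9.91, 8.68 and 12.2% there, and anti-TfR:Malat1 replicates 2, 4 and 6 held 3.32, 10.4 and 7.58% (1, 1 and 2 nuclei).

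Without the choroid plexus-like nuclei, saline replicates 1 to 4 stood at 10.9, 9.60, 8.17 and 6.10%, and OTV:Malat1 replicates 1 and 2 at 4.59 and 6.13%. The counting intervals of OTV:Malat1 replicate 2 (5.78 to 6.50%) and saline replicate 4 (5.64 to 6.59%) overlap almost wholly. They cover counting error alone, and the 2 animals are from different batches (3 and 4). Saline replicate 3, of the same batch as OTV:Malat1 replicate 2, had an interval of 7.86 to 8.50%. Anti-TfR:Malat1 replicates 2 and 6 stood at 5.98 and 4.58% (10 and 37 nuclei), the first again with an interval (5.69 to 6.28%) overlapping saline replicate 4, and the 5 nuclei of replicate 1 were all choroid plexus-like. Malat1 ASO replicates stood at 7.39, 7.09, 8.66 and 5.40%, and the remaining animals, with 1 or 2 nuclei each, at 7.57 and 8.19% (anti-TfR:Malat1 replicates 4 and 5) and 2.91% (OTV:Malat1 replicate 3).

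The same animals offered a contrast with the other labels. In oligodendrocyte-labelled nuclei of these 13 animals, mean Malat1 was 10.2% ± 1.75 (SD, n = 4) in saline, 9.73% ± 2.08 (n = 4) in Malat1 ASO, 6.40% ± 0.50 (n = 3) in anti-TfR:Malat1 and 1.75% ± 0.20 (n = 2) in OTV:Malat1. OTV:Malat1 was thus at 17.2% of saline in oligodendrocyte-labelled nuclei and at 57.3% in Glia-labelled nuclei. In neuron-labelled nuclei it was at 73.0%.

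Within an animal, log2 Malat1 in Glia-labelled minus oligodendrocyte-labelled nuclei was 1.28 and 1.40 in OTV:Malat1 replicates 1 and 2. It was below 0 in every other animal. Saline animals lay between -0.57 and -0.26, Malat1 ASO animals between -0.71 and -0.38, and anti-TfR:Malat1 animals between -1.02 and -0.23. OTV:Malat1 minus saline was 1.75 on this scale (exact permutation p = 0.13, the smallest that 2 against 4 can give, adjusted p = 0.40), with 2 of 2 animals above all 4 saline animals. OTV:Malat1 minus anti-TfR:Malat1 was 1.91 (exact permutation p = 0.20, the smallest possible for 2 against 3, adjusted p = 0.40). For anti-TfR:Malat1 minus saline the value was -0.16 (exact permutation p = 0.63), and without anti-TfR:Malat1 replicate 1 it was 0.06.

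Against neuron-labelled nuclei the order differed. For log2 Malat1 in Glia-labelled minus neuron-labelled nuclei, the saline animals spanned 0.058 to 0.50 and the Malat1 ASO animals 0.023 to 0.31. The 3 anti-TfR:Malat1 animals spanned -0.47 to 0.0081, and the OTV:Malat1 pair was at 0.0017 and -0.16. All 5 conjugate animals with at least 5 Glia-labelled nuclei lay below every saline animal. In these sums too, the mix of nuclei and the level within nuclei cannot be told apart. Anti-TfR:Malat1 minus saline was -0.53 (exact permutation p = 0.057, adjusted 0.23) and OTV:Malat1 minus saline was -0.36 (exact permutation p = 0.13, adjusted 0.27), each again the smallest p its animals allow.

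**Figure D5:**
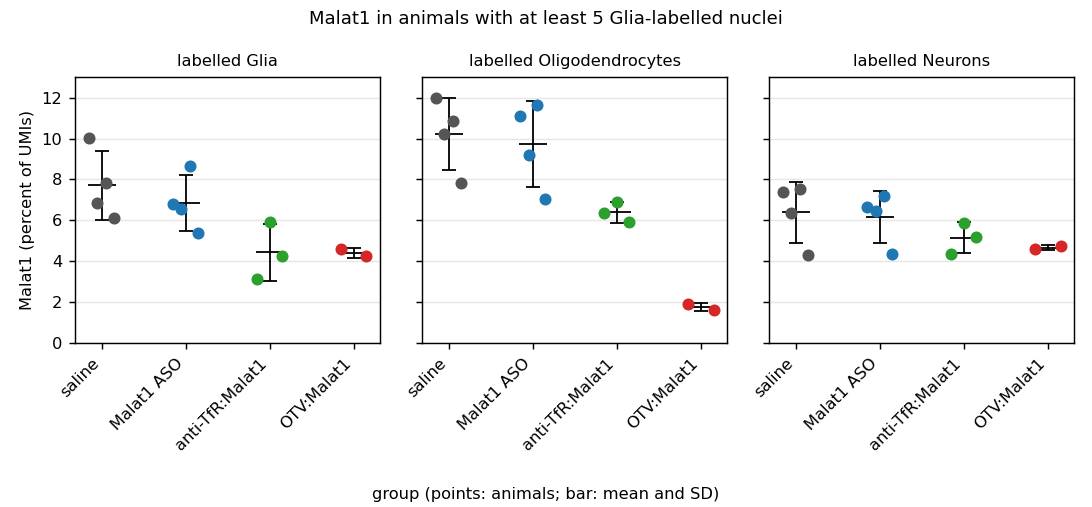
Malat1 as a percent of UMIs (vertical) in Glia-, oligodendrocyte- and neuron-labelled nuclei of the 13 animals with at least 5 Glia-labelled nuclei, with 1 point per animal and bars for the mean and SD of each group. The OTV:Malat1 animals are at 4.24 and 4.59% in Glia-labelled nuclei and at 1.61 and 1.90% in oligodendrocyte-labelled nuclei.

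The deposited table assigns animals to 4 batches, whose meaning the sources used here do not state. Within batches, anti-TfR:Malat1 minus saline in log2 Malat1 of Glia-labelled nuclei was -1.67, -0.22 and -0.52 in batches 1, 2 and 4, with 1 animal a side. OTV:Malat1 minus saline was -0.58 and -0.89 in batches 2 and 3. Malat1 ASO minus saline was -0.56, -0.06, 0.14 and -0.18 in batches 1 to 4.

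Across all genes, counts were summed per animal and 758 genes passed the filter on low counts. The edgeR quasi-likelihood test called 0 of them (0%) at an adjusted p under 0.05 in each of the 4 comparisons. At an unadjusted p under 0.05 it had 24, 21, 18 and 10 genes, and DESeq2, which also called 0, had 20, 21, 18 and 14. In counts simulated for anti-TfR:Malat1 against saline, 62.5% of 200 genes altered 4-fold were recovered among 688 genes tested, and 98.5% of 200 altered 8-fold among 706. The simulation gave every gene the same median dispersion and every animal the same mean profile, and altered only genes with larger expected counts. Real animals differed in their mix of nuclei, so these recoveries do not give the share that the real data would show. Malat1 itself had an edgeR log2 change of -0.86 ± 0.40 (SE) in anti-TfR:Malat1 (adjusted p = 0.99), -0.83 ± 0.46 in OTV:Malat1 (adjusted p = 1.00) and -0.09 ± 0.36 in Malat1 ASO (adjusted p = 1.00). The last was 0.11 without saline replicate 1 and 0.00088 without Malat1 ASO replicate 4.

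Of the fixed lists, the genes that passed the filter were 8 of 14 motile cilium genes, 6 of 8 choroid plexus genes, 2 of 6 tanycyte genes and 3 of 10 ependymal genes. None was called. In Malat1 ASO against saline, 7 of the 8 cilium genes had values below 0, with a median log2 change of -0.61 against 0.04 for all 758 genes. In anti-TfR:Malat1 and OTV:Malat1 their medians were 0.08 and 0.02, beside 0.02 and -0.03. With 1 animal left out these 3 medians ran from -0.73 to -0.41, from -0.0040 (without saline replicate 2) to 0.25 (without saline replicate 3), and from -0.19 (without OTV:Malat1 replicate 1) to 0.42 (without OTV:Malat1 replicate 2). For the choroid plexus genes the medians were -0.26, 1.08 and 0.46 in Malat1 ASO, anti-TfR:Malat1 and OTV:Malat1. Over all animals of these groups choroid plexus-like nuclei made up 10.3, 34.2 and 32.4% (14% in saline). The medians covered only animals with at least 5 Glia-labelled nuclei, 3 of 6 in anti-TfR:Malat1 and 2 of 3 in OTV:Malat1. Without OTV:Malat1 replicate 2, which held all of that group's choroid plexus-like nuclei, the OTV:Malat1 median was -5.28, and without anti-TfR:Malat1 replicate 1 the anti-TfR:Malat1 median was 0.19. Without saline replicate 2 the 3 medians were 0.69, 2.02 and 1.43, and without saline replicate 4 they were -0.66, 0.66 and 0.13. The Malat1 ASO median was 0.01 without Malat1 ASO replicate 4, and the OTV:Malat1 median was 1.44 without OTV:Malat1 replicate 1. The 2 tanycyte genes were Nnat and Col23a1, at -1.31 and -0.68 in anti-TfR:Malat1, where replicate 1 held no UMI for either. Their median there was -0.39 without replicate 1 and -1.55 without replicate 6. It was -0.19 in Malat1 ASO (-0.50 to 0.18 with 1 animal left out, the extremes without saline replicate 2 and Malat1 ASO replicate 3). In OTV:Malat1 it was -0.18, or -2.49 without replicate 1 and 0.66 without replicate 2.

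Neuronal genes, 5 tested of 8, had medians above 0 with all animals in. Against saline the median was 1.5 for Malat1 ASO, 0.35 for anti-TfR:Malat1 and 1.57 for OTV:Malat1. Without Malat1 ASO replicate 3 the first of these was 0.35, and the second ran from -0.05 without anti-TfR:Malat1 replicate 2 to 1.20 without saline replicate 2. The third ran from 1.23 without saline replicate 1 to 1.89 without saline replicate 2. Syt1, a synaptic vesicle calcium sensor, stood at 60.7 to 268 CPM in saline animals, at 202, 222, 3009 and 215 in Malat1 ASO replicates 1 to 4, at 86.7, 598 and 259 in anti-TfR:Malat1 replicates 1, 2 and 6, and at 636 and 744 in OTV:Malat1. The Malat1 ASO animals other than replicate 3, and anti-TfR:Malat1 replicates 1 and 6, lay within the saline range. Its edgeR log2 change was 2.87 ± 1.04 (SE) in Malat1 ASO and 2.30 ± 1.17 in OTV:Malat1 (adjusted p = 1.00 for both), and 0.65 ± 0.62 in Malat1 ASO without replicate 3. The nucleus of 11850 UMIs in the neuronal cluster 4 came from Malat1 ASO replicate 3.

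Oligodendrocyte genes had a median of -1.98 in OTV:Malat1 over the 4 tested of 10, all below 0, against -0.06 in Malat1 ASO and -0.88 in anti-TfR:Malat1. Without saline replicate 1 these medians were -1.11, 0.46 and -0.42, and without OTV:Malat1 replicate 2 the first was -3.95. The Malat1 ASO median lay between -0.49 and 0.46 with 1 animal left out, and the anti-TfR:Malat1 median was -1.46 without anti-TfR:Malat1 replicate 2. Mbp, a major myelin protein gene, was at 99 to 838 CPM in saline animals and 71 to 118 for OTV:Malat1. Malat1 ASO animals held 53.7 to 757, the lowest below both OTV:Malat1 animals, and anti-TfR:Malat1 animals held 130 to 373. Each treated group overlapped saline. The Mbp edgeR log2 change in OTV:Malat1 was -2.04 ± 0.97 (SE, adjusted p = 1.00), or -1.11 without saline replicate 1. Sub-cluster 6, which held most oligodendrocyte UMIs, made up 6 of 57 nuclei in saline and 2 of 34 in OTV:Malat1. Of those 2, 1 was from OTV:Malat1 replicate 3, which was not in the fit. The part of sub-cluster 6 in this Mbp value was not tested.

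Neat1, a noncoding RNA of paraspeckles that neighbours Malat1 in the genome, was at 320 CPM in Glia-labelled nuclei and at 1060 in oligodendrocyte-labelled ones. Its edgeR log2 changes were 0.46 ± 0.53 (SE), 0.07 ± 0.56 and 0.34 ± 0.64 in Malat1 ASO, anti-TfR:Malat1 and OTV:Malat1 (adjusted p of 0.99 or more). Meg3, an imprinted noncoding RNA abundant in neurons, was at 1404 CPM against 7872 in neuron-labelled nuclei, and reached 3697 in sub-cluster 4. Tfrc, the mouse receptor gene, had 1 UMI among the 225 nuclei. The interferon response list summed to 252 CPM and none of its 18 genes passed the filter, so no treatment difference could be read for it.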

How the data were processed

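Nuclei from frozen posterior brain were sorted and captured with the 10x Genomics system, per the labels' protocols. The authors deposited a matrix of UMI counts per gene and nucleus, with mm10, Cell Ranger 6.0.1 and Seurat 4 named in the submitters' processing notes. Prediction and doublet scores are deposited as fractions from 0 to 1, beside labels, doublet calls and clusters, and 8 further columns of the deposited table were not used. Animals gave 13841 to 18365 nuclei and 55393588 to 79866411 UMIs each, and Glia-labelled nuclei 1496 to 116024 UMIs. Of 273792 barcode sequences 10044 occurred in more than 1 library, 16 of them in Glia-labelled nuclei, with 0 shared between Glia-labelled nuclei. The label's nuclei were not thinned: their median of UMIs was below that of the other nuclei in 12 of the 13 animals with 5 or more.

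Levels are counts per 1000000 UMIs (CPM) over summed nuclei. Named genes were Malat1, Neat1, Meg3 and Tfrc, the 25 genes leading against all other nuclei and the 10 leading against the highest other label, among the 4290 with a UMI in at least 10% of Glia-labelled nuclei, 10 for each deposited cluster with at least 20 of these nuclei, up to 5 called genes each way, and examples from the lists. Col25a1, Thbs4, Gm973, Syt1 and Mbp were chosen after their values were seen. Sub-clusters came from 1000 variable genes, 10 components, 15 neighbours and Leiden clustering (leidenalg 0.10.2) at resolution 0.5. Deposited doublets were kept, and no other doublet caller was run. Counts summed per animal were tested with edgeR 4.0.16 (filterByExpr, TMM, quasi-likelihood, 1 fit over 4 groups) with Benjamini-Hochberg adjustment, and DESeq2 1.42.0 was an alternative. Malat1 and shares were tested by exact permutation of animals with scipy 1.17.1, adjusted over the 4 comparisons. The first 3 comparisons use the same saline animals. Binomial intervals cover counting error only. The scripts were tested on simulated data.

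Replicate numbers were not used to pair animals in the main tests: of 14 same-numbered pairs, 4 had correlated deviations above 0.1 (r from -0.64 to 0.55). The deviations of the 2 OTV:Malat1 animals mirror each other, so this check cannot exclude pairing. Malat1 in neuron-labelled nuclei was 7.37, 6.37, 7.54 and 4.31% in saline replicates 1 to 4. In Malat1 ASO replicates 1 to 4 it was 6.67, 6.44, 7.21 and 4.35%. For saline, Malat1 ASO and the first 3 anti-TfR:Malat1 animals the number equals the deposited batch. Members and gene lists were chosen with earlier results of these data known, and sub-clusters and the alternatives based on them were added after seeing the data.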

Additional observations from a re-analysis of the deposited data

Results flagged for a closer look

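The share of Glia-labelled nuclei in anti-TfR:Malat1 replicate 6 (0.32% of its nuclei) stood far above the other 5 animals of its group, whose highest was 0.063%. It gave 53 of the 225 nuclei (23.6%). Of 9 groups of values examined for such an animal, 1 was flagged, and chance flags about 1 in 20. The animal's 53 nuclei were 16 choroid plexus-like, 25 tanycyte-like and 12 unnamed, and its Malat1 (4.25%) lay between those of replicates 1 and 2 of its group.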

How the results depend on the processing

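Of 350 recomputed values, 26 turned their sign and 1 count of genes moved. With at most 3 against 4 animals the permutation test cannot reach 0.05, so for those comparisons a p above it says nothing about stability. For Malat1 in Glia-labelled nuclei the sign turned for OTV:Malat1 minus anti-TfR:Malat1, where it was -0.0054 with a prediction score of at least 0.5, -0.078 with at least 3 nuclei per animal, -0.24 with at least 10 and -0.36 within batches. It ranged from -0.18 to 0.27 with 1 animal left out, being negative without anti-TfR:Malat1 replicate 1 and without OTV:Malat1 replicate 1. In the permutation measure the other 3 comparisons kept their sign under the alternatives run, with exact p from 0.032 to 0.86, and log2 ranges of -0.57 to -0.03 for Malat1 ASO, -1.05 to -0.51 for anti-TfR:Malat1 and -1.06 to -0.37 for OTV:Malat1, each minus saline. In the model across all genes, the Malat1 change in Malat1 ASO ran from -0.83 to 0.11 and was positive without saline replicate 1 (0.11) and without Malat1 ASO replicate 4 (0.00088).

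The Glia share moved around 0. For Malat1 ASO minus saline it was -0.014 percentage points at a score of at least 0.5, and from -0.018 to 0.027 with 1 animal left out, negative without saline replicate 2 or 4 or Malat1 ASO replicate 1 or 2. Anti-TfR:Malat1 minus saline ran from -0.061 to 0.013 and OTV:Malat1 minus saline from -0.059 to 0.0029 with 1 animal left out, the latter being 4.6e-05 within batches. OTV:Malat1 minus anti-TfR:Malat1 ran from -0.047 to 0.035 with 1 animal left out. The sign turned for anti-TfR:Malat1 without saline replicate 1 or anti-TfR:Malat1 replicate 3, for OTV:Malat1 without saline replicate 1 or OTV:Malat1 replicate 3, and between the conjugates without anti-TfR:Malat1 replicate 6 or OTV:Malat1 replicate 3. With the replicate block the difference between the conjugates was 0.028, and the block turned no other sign. For saline, Malat1 ASO and the first 3 anti-TfR:Malat1 animals the number equals the deposited batch, which the main tests did not use. For the other animals number and batch differ, and whether the numbers pair them was not settled. No alternative gave an adjusted p under 0.05.

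Glia minus oligodendrocyte-labelled Malat1 stayed between 1.61 and 2.15 for OTV:Malat1 minus saline and between 1.5 and 2.08 against anti-TfR:Malat1. For anti-TfR:Malat1 minus saline it was 0.014 without the choroid plexus-like sub-cluster, 0.012 with at least 10 nuclei, 0.14 in tanycyte-like nuclei, and from -0.33 to 0.064 with 1 animal left out. Glia minus neuron-labelled Malat1 was 0.038 in tanycyte-like nuclei for OTV:Malat1 minus saline, and for OTV:Malat1 minus anti-TfR:Malat1 it was -0.022 with at least 10 nuclei and -0.0064 within batches. For anti-TfR:Malat1 minus saline it ran from -0.66 to -0.35. Its lowest exact permutation p, before adjustment, was 0.016, with at least 3 nuclei per animal (5 against 4 animals). In Malat1 ASO against saline, 6 genes were called with no filter on low counts, among 16285 tested, and 0 in the other fits, as in every fit of the other comparisons. Medians of some gene lists moved widely with 1 animal left out, from -5.28 to 1.44 for the choroid plexus genes in OTV:Malat1 against saline and from 0.35 to 2.19 for the neuronal genes in Malat1 ASO. The neuronal median in OTV:Malat1 moved less, from 1.23 to 1.89. The cause of these changes was not tested. The Glia-labelled nuclei of an animal in these fits held 10097 to 116024 UMIs, and the effect of depth on the number of calls was not tested.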
